A study of Mus musculus with 6 samples.

Results

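The genes described here are those of the aminoacyl-tRNA synthetases, the enzymes that load each transfer RNA with its amino acid. The 36 members were chosen by name: 20 encode enzymes of the cytosol and 16 enzymes of mitochondria. All 36 were found among the 22579 genes of the deposited table, and all 36 passed the filter on low counts, as did 14766 genes in all. Mars1 is listed as Mars in the annotation used. Gars and Kars, the glycine and lysine enzymes, serve both compartments from 1 gene and are counted as cytosolic here.

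RNA was measured in THY1-positive spermatogonia of Ddx20 knockout mice and of control littermates at a time labelled day 4, with 3 libraries per genotype. The labels shorten the knockout to cKO and name neither the cells in which Ddx20 was deleted nor the allele of the controls. Selection on the surface antigen THY1 enriches the undifferentiated cells, and DDX20 (Gemin3) is an RNA helicase of the SMN complex. Each library came from about 1000 cells and was made with SMART-seq2, which copies RNA from its poly(A) end and amplifies the whole cDNA by PCR without molecular identifiers.

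Animal cells carry a cytosolic and a mitochondrial set of synthetases. The cytosolic set charges the tRNAs that read nuclear mRNAs, and part of it is held together with 3 scaffold proteins in the multi-tRNA synthetase complex. The mitochondrial set is also encoded in the nucleus, is imported, and charges the tRNAs that read the few mRNAs of the mitochondrial genome. Many cytosolic synthetase genes are known targets of ATF4, the transcription factor of the integrated stress response, which binds a composite C/EBP-ATF response element.

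That element could be looked for in the promoters of 27 of the 36 members for which RefSeq gave a window (build GRCm38.p6, 250 bases before to 50 after the annotated start). The core TGATGNAA, searched on both strands, stood in 5 of 13 cytosolic and 0 of 14 mitochondrial promoters, against 4.51% of the 27025 genes with a window of the same length. All 5 holders were among the 12 members listed as ATF4 targets, 8 of which had a window. The Aars promoter is shown whole, since Aars was the cytosolic gene that passed the test between genotypes, and the other 4 holders are shown as 48 bases around the match. Capitals mark the match, which reads as the reverse complement in Aars, Gars, Iars and Tars.
Aars (chr8:111033592-111033891, plus strand): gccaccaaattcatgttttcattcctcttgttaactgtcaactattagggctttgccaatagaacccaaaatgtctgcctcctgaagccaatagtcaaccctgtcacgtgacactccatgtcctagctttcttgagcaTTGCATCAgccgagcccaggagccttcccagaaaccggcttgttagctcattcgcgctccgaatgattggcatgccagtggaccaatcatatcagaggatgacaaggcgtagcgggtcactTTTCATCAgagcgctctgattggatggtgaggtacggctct
Gars (chr6:55037951-55037998, plus strand): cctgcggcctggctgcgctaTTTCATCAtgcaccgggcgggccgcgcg
Iars (chr13:49682117-49682164, plus strand): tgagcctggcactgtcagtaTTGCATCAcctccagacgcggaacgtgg
Tars (chr15:11399646-11399693, minus strand): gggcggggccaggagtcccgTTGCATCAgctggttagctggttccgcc
Yars (chr4:129189886-129189933, plus strand): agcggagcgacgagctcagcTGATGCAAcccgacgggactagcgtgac

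The Lars2 promoter is shown beside them because Lars2 was the mitochondrial gene that passed the test. It holds no match to the core, which says only that these letters are not in this window.
Lars2 (chr9:123366677-123366976, plus strand): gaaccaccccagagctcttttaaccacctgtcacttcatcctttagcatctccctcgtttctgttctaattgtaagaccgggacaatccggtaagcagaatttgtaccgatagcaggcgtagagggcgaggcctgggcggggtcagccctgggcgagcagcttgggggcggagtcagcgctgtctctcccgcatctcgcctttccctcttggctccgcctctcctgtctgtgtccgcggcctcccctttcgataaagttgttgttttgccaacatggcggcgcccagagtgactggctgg

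Some facts of the libraries bear on all values that follow. Total counts ran from 8428871 to 12497967 reads. Ddx20 itself had 11.9, 15.2 and 10.7 CPM (reads scaled to a common library size, with TMM normalisation) in the knockouts, against 63.8, 36.4 and 40.7 CPM in the controls. Knockout 1 and knockout 2 were nearly alike: they gave a chi-square of 1.78 averaged over genes, with 1 for sampling noise alone and 11.96 to 104 in the other 14 pairs of libraries. They were entered as separate libraries, and the synthetase calls are also given with the pair merged into 1 library. Reads of the mitochondrial genome made up 19.8%, 19.8% and 20.1% of the knockout libraries, against 14.5%, 16.9% and 14.0% of the control libraries. Of 9 germ cell markers none was at 0 in a group, and their summed level, most of it from Dazl, was 3832 to 4195 CPM in the knockouts and 3465 to 4180 CPM in the controls. Of these markers 7 had values below 0, 5 of them without overlap, against 15.8% of all tested genes. By edgeR 2 fell, against 2.8% of all tested genes: Gfra1 (log2 fold change −0.69) and Etv5 (−0.65), both genes of undifferentiated spermatogonia. The other 2 were above 0. Of these Ddx4 lay higher in the knockouts without overlap (465 CPM against 365 CPM in the controls, log2 fold change 0.35). Thy1 itself stood at 5.76 to 7.34 CPM in the knockouts and 5.60 to 13.7 CPM in the controls. Summed markers of 4 other cell types lay higher in the knockouts without overlap. They were 157 to 221 CPM in the knockouts and 64.0 to 79.3 CPM in the controls for 5 peritubular myoid genes. Most of this sum came from Acta2 (182 CPM in the knockouts and 60.8 in the controls), which was called higher by edgeR. Des did not overlap, Myh11 and Cnn1 did, and Tagln did not pass the filter on low counts. For 5 macrophage genes the sums were 1421 to 2152 CPM in the knockouts and 494 to 1205 CPM in the controls. The macrophage sum came mostly from Lyz2 (1384 CPM in the knockouts and 657 in the controls). Lyz2 and C1qa did not overlap, Csf1r, Adgre1 and Cd68 did (log2 fold changes −0.09, 0.07 and 0.21), and 0 of the 5 were called by edgeR, with 2 higher at an unadjusted p under 0.05. For 5 T cell genes the sums were 37.4 to 56.9 CPM in the knockouts and 19.0 to 22.9 CPM in the controls. Cd3g and Lck were called higher by edgeR (log2 fold changes 1.24 and 1.68), while Cd8a had a value of −0.74 and was not called. For 5 endothelial genes, of which 0 were called, the sums were 42.1 to 53.6 CPM in the knockouts and 30.8 to 39.1 CPM in the controls. The sums overlapped for 6 Sertoli genes (26.2 to 45.0 CPM in the knockouts and 29.2 to 34.5 CPM in the controls) and 5 Leydig genes (43.8 to 61.9 CPM in the knockouts and 20.3 to 60.3 CPM in the controls). Rhox5, on the Sertoli list, had 0 reads in knockout 2, against 168 and 136 in knockouts 1 and 3 and 120 to 148 in the controls. Of the Sertoli genes, Cldn11 was called higher (3.69 CPM in the knockouts and 0.357 in the controls, edgeR adjusted p 0.0341). Over all tested genes 2.03% were called higher. No marker was at 0 in all libraries of a group, and the part of these cells in the results below was not tested. Fewer cells of a type and less RNA per cell cannot be told apart in such bulk libraries.

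Of the family, 2 genes passed the test between genotypes. By the edgeR quasi-likelihood test with Benjamini-Hochberg adjustment over all genes, 1 member rose in the knockouts (Lars2), 1 fell (Aars) and 34 did not pass. The share of all 14766 tested genes called was 4.83%, with 2.03% higher and 2.8% lower. With other tests more members were called, as were more genes in all: DESeq2 called 5 members (11.1% of all genes) and limma-voom 9 (18.7%), and edgeR with knockout 1 and 2 counted as 1 library called 0 (1 gene in all, or 0.00649%), with 7 members at an unadjusted p under 0.05. The family as a whole took 0.218%, 0.220% and 0.227% of reads in the knockouts, against 0.286%, 0.220% and 0.267% in the controls. In TMM-scaled units its sum was 2429 ± 105 CPM in the knockouts and 2346 ± 74.6 CPM in the controls (SD, n = 3 each). Below the threshold the mitochondrial members leaned lower: their median log2 fold change (knockout over control) was −0.34, with 10 of 16 below 0, and the cytosolic median was −0.07, with 11 of 20 below 0. Whether the sets differ from other genes was not tested. The median over all tested genes was 0.01, with 7340 of 14766 below 0.

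**Figure D1:**
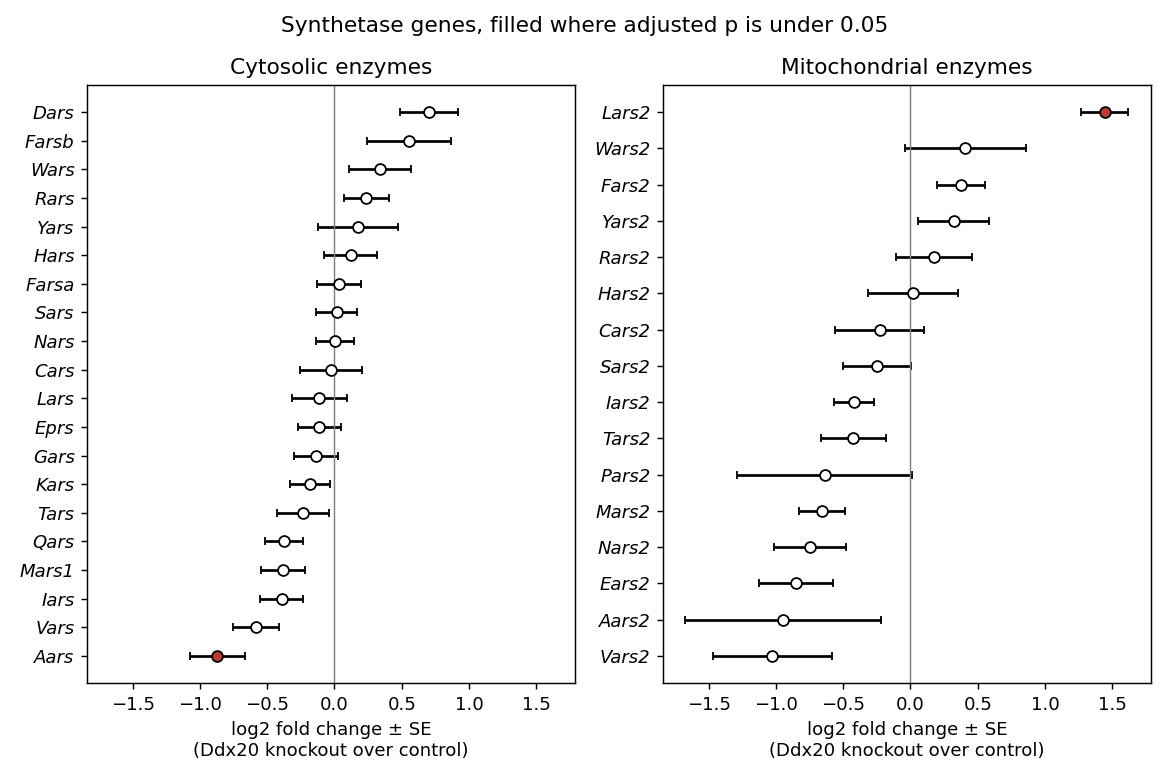
Log2 fold change of Ddx20 knockout over control for each synthetase gene (x axis, points with SE bars derived from the edgeR F statistic, 3 libraries per group), with cytosolic enzymes on the left and mitochondrial enzymes on the right, ordered by value. The filled points are Lars2 (1.44) and Aars (−0.87), the genes with an adjusted p under 0.05.

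Lars2, which encodes the mitochondrial leucyl-tRNA synthetase, was the member that changed most. The gene (ENSMUSG00000035202) spans bases 123366927 to 123462666 of chromosome 9 (mm10, plus strand). It had 1697, 1910 and 1302 reads in the knockouts, against 582, 615 and 662 reads in the controls. In CPM these were 158, 173 and 117 in the knockouts, against 55.6, 58.4 and 50.7 in the controls. Every knockout library thus lay above every control library, and the lowest knockout, number 3, was still far from the highest control. The mean was 149 ± 28.9 CPM in the knockouts and 54.9 ± 3.86 CPM in the controls (SD, n = 3 each), 2.72-fold higher, with a log2 fold change of 1.44 ± 0.18 (SE) and an edgeR adjusted p of 0.0101. With knockout 1 and 2 counted as 1 library the log2 fold change was 1.37, with an adjusted p of 0.0541 by edgeR, 1.80e-05 by DESeq2 and 0.00166 by limma-voom. Without knockout 1 the edgeR adjusted p was 0.0505, without knockout 2 it was 0.0499, and over all alternatives and tools tried the adjusted p ran from 2.98e-10 to 0.0541.

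The 3′ end of the Lars2 transcript shares sequence with other genes, and the mouse gene is known for sequence there that resembles ribosomal RNA. In its main transcript of 3894 bases the 3′ UTR begins at base 2906. Bases 3278 to 3349 match 72 bases of the long non-coding RNA Gm15564 at 98.6% identity, and bases 3163 to 3349 align over 196 positions with AA474408 at 80.1% (blastn). Counts of AA474408 were not analysed here. Gm15564, looked up after the match was found, went the other way: it had 2.7, 5.08 and 3.60 CPM in the knockouts, against 9.65, 5.22 and 7.51 CPM in the controls. Its log2 fold change was −0.97 ± 0.41 (SE; edgeR adjusted p 0.179). The sources used here do not say how reads that fit more than 1 gene were counted. Ribosomal RNA genes were not analysed here, so the 2.72-fold value may hold rRNA-like reads, and their part in it was not tested.

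Lars2 was one of the most abundant mitochondrial synthetase transcripts. It made up 36.9%, 40.1% and 30.7% of all mitochondrial synthetase CPM in the knockouts, against 15.4%, 16.8% and 13.1% in the controls. Without Lars2 the median log2 fold change of the mitochondrial members was −0.42, with 5 of 15 above 0 and 10 below.

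Aars, the cytosolic alanyl-tRNA synthetase gene, was lower. It lies on chromosome 8 at 111033144 to 111057664 of mm10 and had 236, 248 and 323 reads in the knockouts, against 524, 500 and 482 in the controls. These counts came to 21.9, 22.5 and 29.1 CPM in the knockouts, against 50.1, 47.5 and 36.9 CPM in the controls, so the groups did not overlap. The mean was 24.5 ± 3.97 CPM in the knockouts and 44.8 ± 6.94 CPM in the controls (SD, n = 3 each), with a log2 fold change of −0.87 ± 0.20 (SE) and an edgeR adjusted p of 0.0395. The call was close to the threshold. It was lost without any 1 of the knockouts (adjusted p 0.0758 to 0.217), without control 1 or 2 (0.0543 and 0.0928), and when the alike pair was merged into 1 library (0.214 by edgeR, 0.0922 by DESeq2 and 0.0732 by limma-voom). After correction of each library for gene length and GC content it had a log2 fold change of −0.65 and an adjusted p of 0.0750. Its annotated exons share 1326 bases with Exosc6 on the same strand, and the sources used here do not say to which gene reads there were assigned.

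**Figure D2:**
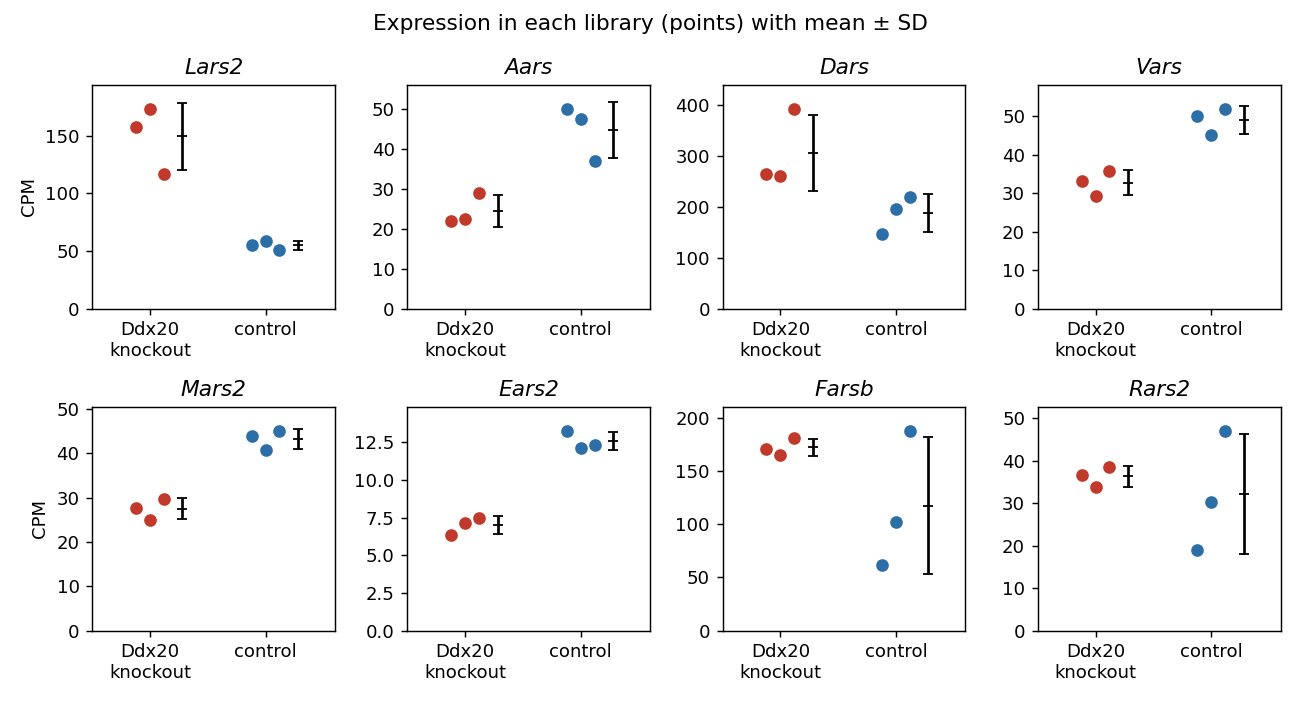
Expression in CPM (y axis from 0) of 8 synthetase genes in the 3 Ddx20 knockout and 3 control libraries, points being libraries and bars the mean ± SD. Lars2 and Aars separate the groups and passed the test, Dars, Vars, Mars2 and Ears2 separate the groups without passing it, and the control points of Farsb and Rars2 spread around those of the knockouts.

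Among the other cytosolic enzymes the furthest from 0 did not pass. Dars, for aspartate, had the highest positive value. It stood at 265, 261 and 393 CPM in the knockouts, against 148, 196 and 221 CPM in the controls, with a log2 fold change of 0.70 ± 0.21 (SE) and an edgeR adjusted p of 0.0835. The groups did not overlap, and knockout 3 lay well above the others. Its adjusted p was 0.0158 by DESeq2 and 0.0362 by limma-voom, and once the pair was merged into 1 library it was 0.0358 by DESeq2, 0.0575 by limma-voom and 0.200 by edgeR.

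Farsb, the beta subunit of the phenylalanine enzyme, had 171, 165 and 181 CPM in the knockouts, against 62.1, 102 and 188 CPM in the controls. The controls spread over the whole range of the knockouts and beyond, and the log2 fold change of 0.55 ± 0.31 had an edgeR adjusted p of 0.314. It was 1.07 with an adjusted p of 0.0394 without control 3, and limma-voom gave an adjusted p of 0.0346 on all libraries and 0.162 with the pair merged. Farsa, the alpha subunit that pairs with it in the enzyme, had a log2 fold change of 0.03. Wars, for tryptophan, had 16.5, 16.2 and 15.3 CPM in the knockouts, against 13.2, 12.7 and 12.03 CPM in the controls, which do not overlap. It had 134 to 179 reads per library, and its log2 fold change of 0.34 had an edgeR adjusted p of 0.406.

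At the lower end stood Vars and Iars, the valine and isoleucine enzymes. Vars had 33.1, 29.3 and 35.8 CPM in the knockouts, against 50.1, 45.1 and 51.9 CPM in the controls, with a log2 fold change of −0.58 ± 0.17 (SE) and an edgeR adjusted p of 0.0747 (0.0413 by DESeq2 and 0.0121 by limma-voom). With the pair merged the adjusted p of Vars was 0.316 by edgeR, 0.229 by DESeq2 and 0.191 by limma-voom. Iars had 135, 130 and 108 CPM in the knockouts, against 187, 147 and 157 CPM in the controls (log2 fold change −0.39, edgeR adjusted p 0.168). In both genes each knockout library lay below each control library. The same was true of Qars, for glutamine, and Mars1, for methionine, with log2 fold changes of −0.38 each and edgeR adjusted p values of 0.135 and 0.186. Mars1 shares 68 exon bases with the stress gene Ddit3 on the opposite strand, and SMART-seq2 does not keep the strand, so reads there cannot be told apart. In all, 13 members share exon bases with another gene.

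The other 12 cytosolic members had overlapping groups and log2 fold changes between −0.24 (Tars) and 0.24 (Rars). In rising order they were Tars, Kars, Gars, Eprs, Lars, Cars, Nars, Sars, Farsa, Hars, Yars and Rars. Nars and Sars, for asparagine and serine, were the nearest to 0, with log2 fold changes of 0.00 ± 0.14 and 0.02 ± 0.15 (SE). The 9 from Eprs to Rars changed sign under at least 1 alternative.

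The members of the multi-tRNA synthetase complex had values of both signs. Of its 8 synthetases 0 were called by edgeR. At an unadjusted p under 0.05, 1 was higher and 3 were lower, against 11.3% and 12.8% of all tested genes. DESeq2 called 1 of the 8 (Dars) and limma-voom 2 (Dars higher and Mars1 lower), against 11.1% and 18.7% of all genes. With the pair merged limma-voom gave Mars1 an adjusted p of 0.397. Their log2 fold changes ran from −0.39 (Iars) to 0.70 (Dars), with a median of −0.15, and the 12 cytosolic enzymes outside the complex had a median of 0.01. The scaffold genes Aimp1, Aimp2 and Eef1e1 had log2 fold changes of 0.25, 0.29 and 0.50 and edgeR adjusted p values of 0.454, 0.671 and 0.106. Eef1e1 stood at 315, 307 and 343 CPM in the knockouts, against 185, 250 and 246 CPM in the controls, without overlap.

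None of the cytosolic members listed as ATF4 targets was called higher. Of these 12, 0 rose and 1 fell (Aars) by edgeR, against 2.03% and 2.8% of all tested genes. With shares so small, these counts cannot set the 12 apart from other genes. At an unadjusted p under 0.05, 0 were higher and 3 lower, against 11.3% and 12.8%. DESeq2 called 0 higher and 1 lower (Aars), and limma-voom 0 higher and 2 lower (Aars and Mars1). Of all genes these tools called 11.1% and 18.7% in either direction, with 794 of 1641 calls and 1090 of 2765 calls higher. The median log2 fold change of the 12 was −0.11, with 8 of 12 below 0, while the other 8 cytosolic members had a median of 0.08. The 5 members whose promoters, printed above, hold the core had log2 fold changes of −0.87 (Aars), −0.39 (Iars), −0.24 (Tars), −0.13 (Gars) and 0.17 (Yars). Gars had 183, 188 and 193 CPM in the knockouts, against 218, 232 and 168 CPM in the controls, with overlap. In the same libraries 2 of 15 tested ATF4 response genes outside the family rose and 0 fell by edgeR, again against 2.03% and 2.8% of all tested genes. At an unadjusted p under 0.05, 3 were higher and 0 lower. DESeq2 called 2 higher (Asns and Sesn2) and 0 lower, and limma-voom the same 2 higher and 1 lower (Shmt2). Asns, the asparagine synthetase gene, had 57.4, 58.2 and 75.7 CPM in the knockouts, against 20.4, 21.1 and 24.1 CPM in the controls, with a log2 fold change of 1.54 and an edgeR adjusted p of 0.0101. Sesn2, a sestrin gene of nutrient sensing, had a log2 fold change of 2.04 and an adjusted p of 0.0279. The RNA of Atf4 itself, named after its value was seen, had a log2 fold change of −0.01, and these libraries hold no measure of its protein. Once knockout 1 and 2 were merged, edgeR called 0 of these response genes, but it then called only 1 gene in all (0.00649%). That count therefore cannot set these genes apart from others.

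Of the 15 mitochondrial enzymes other than Lars2, 0 were called by edgeR, and 5 were lower and 0 higher at an unadjusted p under 0.05, against 12.8% and 11.3% of all tested genes. DESeq2 called 1641 genes (11.1%) in all, 794 of them higher and the rest lower, and limma-voom 2765 (18.7%), 1090 of them higher. Of the 15, DESeq2 called 1 lower (Mars2) and limma-voom 3 (Ears2, Iars2 and Mars2). With the pair merged these calls were lost: the adjusted p of Mars2 was 0.177 by DESeq2 and 0.143 by limma-voom, and limma-voom gave 0.228 for Ears2 and 0.184 for Iars2. Ears2, for glutamate, had 6.32, 7.17 and 7.47 CPM in the knockouts, against 13.3, 12.1 and 12.3 CPM in the controls, and its log2 fold change of −0.85 ± 0.27 (SE) had an edgeR adjusted p of 0.0956. Mars2, for methionine, had 27.8, 25.0 and 29.7 CPM in the knockouts, against 44.0, 40.8 and 45.1 CPM in the controls. Its log2 fold change was −0.66 ± 0.17 (SE). The adjusted p was 0.0561 by edgeR, 0.0201 by DESeq2 and 0.00655 by limma-voom. In both genes the knockouts lay clear of the controls by more than the spread within either group.

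Vars2 and Aars2 had the lowest values of all members but rested on few reads. Vars2, for valine, had 41, 28 and 41 reads in the knockouts, against 106, 66 and 54 in the controls, and its log2 fold change of −1.03 ± 0.44 (SE) had an edgeR adjusted p of 0.188. Aars2, for alanine, had 12, 13 and 12 reads in the knockouts, against 38, 17 and 17 in the controls, with −0.95 ± 0.73 (SE) and an adjusted p of 0.468. In both genes control 1 was the highest library, and without it the log2 fold changes were −0.63 and −0.37. Nars2 (−0.75), Pars2 (−0.64), Tars2 (−0.42), Iars2 (−0.42), Sars2 (−0.25) and Cars2 (−0.23) were the other mitochondrial members below 0. The groups of Nars2, Tars2 and Iars2 did not overlap. Iars2, for isoleucine, stood at 53.6, 57.3 and 53.8 CPM in the knockouts, against 67.8, 80.6 and 72.4 CPM in the controls, with an edgeR adjusted p of 0.120. It shares 2034 exon bases with Rab3gap2 on the opposite strand, which had a log2 fold change of 0.01.

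At the upper end of the set, Fars2, for phenylalanine, had 38.9, 34.6 and 38.4 CPM in the knockouts, against 25.5, 29.4 and 31.3 CPM in the controls. The groups did not overlap, and the log2 fold change of 0.38 ± 0.18 (SE) had an edgeR adjusted p of 0.230. Wars2, for tryptophan, had 4.18, 4.54 and 3.06 CPM in the knockouts, against 2.67, 3.13 and 3.07 CPM in the controls (log2 fold change 0.41, edgeR adjusted p 0.628), with overlap. Yars2, Rars2 and Hars2 had values of 0.32, 0.17 and 0.02. Rars2, for arginine, had 36.6, 33.7 and 38.5 CPM in the knockouts, against 18.9, 30.4 and 47.1 CPM in the controls, which lay on both sides of the knockouts.

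The genes whose libraries separate by genotype were also counted. Knockout lay below control in 7 of 16 mitochondrial and 5 of 20 cytosolic genes, against 15.8% of all tested genes, and above it in 2 of 16 and 2 of 20, against 16.8%. For all 36 members the share was 44.4%, against 32.6% of all tested genes. All members share the same libraries, of which knockout 1 and 2 were nearly alike.

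Enzymes for the same amino acid in the 2 compartments often had values of the same sign. Of 17 pairs (the bifunctional Eprs set against both Ears2 and Pars2, and both Farsa and Farsb against Fars2) 14 had the same sign, and over the alternatives tried 11 to 15 did. Aars and Aars2 were both low, with log2 fold changes of −0.87 and −0.95, as were Vars and Vars2 (−0.58 and −1.03), Mars1 and Mars2 (−0.38 and −0.66), and Iars and Iars2 (−0.39 and −0.42). The 3 pairs of unlike sign were Lars and Lars2 (−0.11 and 1.44), Nars and Nars2 (0.00 and −0.75), and Sars and Sars2 (0.02 and −0.25), and Lars2 thus rose beside a cytosolic partner that did not pass the test. Hars and Hars2, which face each other on chromosome 18, share 195 exon bases on opposite strands. The log2 fold changes come from the same 6 libraries, so the points are not independent. Some signs rest on values close to 0, such as those of Cars (−0.03), Farsa (0.03) and Hars2 (0.02). Pairs of unlike amino acids were not counted, so the share of like signs cannot be tied to the amino acid.

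**Figure D3:**
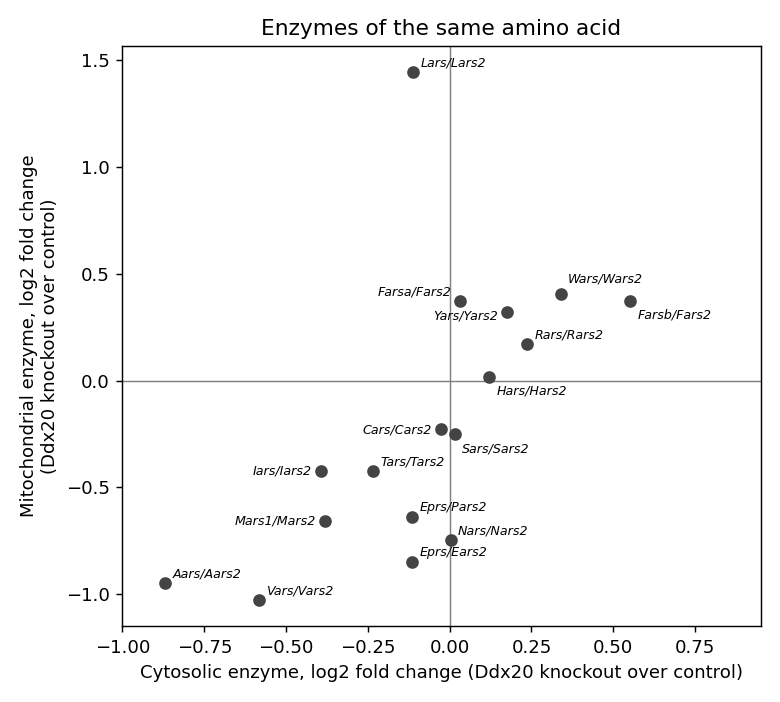
Log2 fold change (Ddx20 knockout over control) of the mitochondrial enzyme (y axis) against that of the cytosolic enzyme (x axis) for the 17 pairs that use the same amino acid, each point a pair of genes named cytosolic/mitochondrial. Most points lie in the lower left and upper right, and Lars/Lars2 stands alone at the top with values of −0.11 and 1.44.

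Levels between genes can be compared per length. Per kilobase of the principal mRNA, cytosolic synthetases had a median of 24.0 CPM per kb in the knockouts and 27.9 in the controls, and mitochondrial ones of 4.95 in the knockouts and 6.76 in the controls. In the knockouts the highest cytosolic level was that of Dars (141 CPM per kb) and the highest mitochondrial level that of Lars2 (38.4). In the controls Gars (86.7 CPM per kb) and Dars (86.5) led the cytosolic set, with Kars (83.6) and Rars (81.0) within their spread, and Rars2 (17.2) led the mitochondrial set, with Lars2 (14.1), Fars2 (13.5), Iars2 (13.5) and Yars2 (13.1) close behind. The lowest were Aars2 in both groups, at 0.336 CPM per kb in the knockouts and 0.652 in the controls, and, among cytosolic genes, Aars in the knockouts (4.26) and Cars in the controls (4.77). Pars2, for proline, was another low one, at 0.746 CPM per kb in the knockouts and 1.17 in the controls. The cytosolic enzyme was above its mitochondrial counterpart in all pairs except Cars/Cars2, Lars/Lars2 and Yars/Yars2. In the Lars/Lars2 pair the ratio was 0.263 in the knockouts and 0.774 in the controls. This order depends on the length used: per kilobase of all annotated exons the Lars/Lars2 ratio was 0.556 in the knockouts and 1.63 in the controls, and the Cars/Cars2 ratio was 1.39 in the knockouts and 1.21 in the controls. These levels rest on the annotated mRNA lengths, which ran from 1574 (Yars2) to 11294 bases (Mars2).

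**Figure D4:**
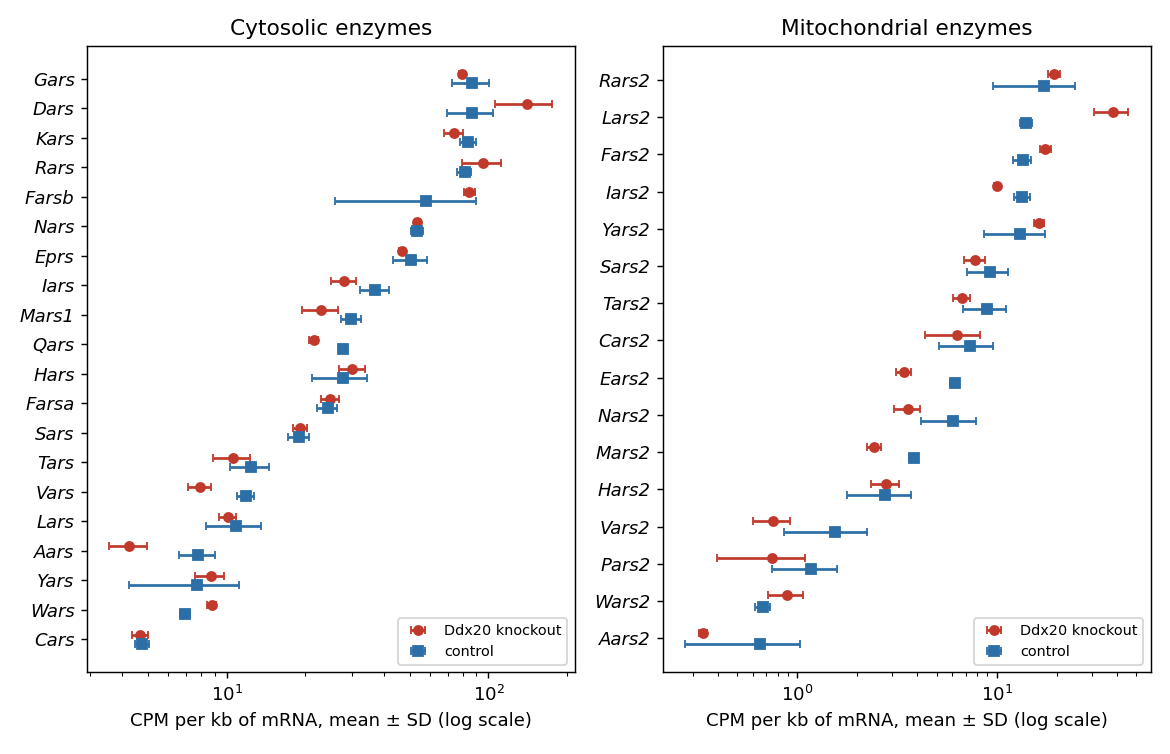
Level of each synthetase gene per kilobase of principal mRNA (x axis, CPM per kb, log scale) in Ddx20 knockout (circles) and control (squares) libraries, as mean ± SD of 3 libraries, ordered by the control mean. Cytosolic genes run from about 4 to 141 CPM per kb and mitochondrial genes mostly below 20, with Lars2 in the knockouts at 38.4.

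The ratio of cytosolic to mitochondrial transcripts overlapped between genotypes. Summed per kilobase of exon, the cytosolic genes gave 473 ± 37.2 CPM per kb in the knockouts and 446 ± 28.3 in the controls, and the mitochondrial genes 65.8 ± 2.21 in the knockouts and 61.4 ± 6.36 in the controls (SD, n = 3 each). The ratio of the sums was 6.69, 6.80 and 8.16 in the knockouts, against 7.08, 7.90 and 6.92 in the controls, with overlap. Leaving out Lars2, the ratio was 8.47, 8.88 and 9.79 in the knockouts, against 7.73, 8.71 and 7.41 in the controls, which still overlapped. On the log2 scale the mean difference of knockout minus control was −0.02 with all members and 0.19 without Lars2. The ratio does not depend on how libraries are scaled, and no p was computed for it.

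**Figure D5:**
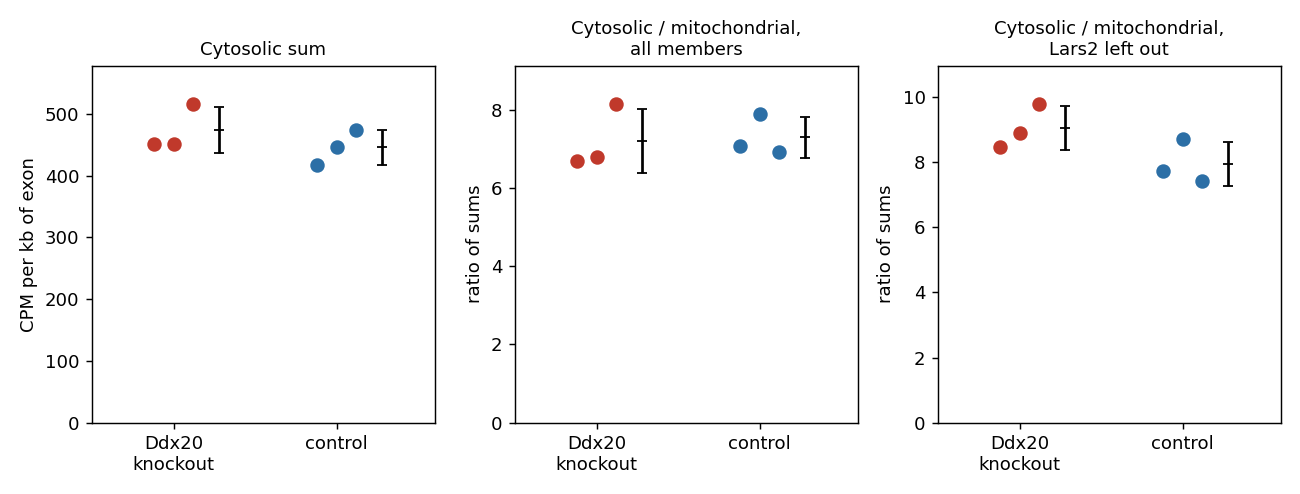
Summed level of the cytosolic synthetases (left, CPM per kb of exon) and the ratio of the cytosolic to the mitochondrial sum with all members (middle) and without Lars2 (right), in each Ddx20 knockout and control library, with mean ± SD. The ratios run from 6.69 to 8.16 in the knockouts and from 6.92 to 7.90 in the controls with all members, and from 8.47 to 9.79 in the knockouts and from 7.41 to 8.71 in the controls without Lars2.

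Proteins that work beside the synthetases were also followed, through 13 genes. By edgeR 0 of the 13 were called, with 4 higher at an unadjusted p under 0.05, against 11.3% of all tested genes. DESeq2 called 2 higher (Eef1e1 and Dtd1, a D-aminoacyl-tRNA deacylase) and limma-voom 3 (these and Gatc). Of all 14766 tested genes DESeq2 called 794 higher and limma-voom 1090, out of 11.1% and 18.7% called in either direction. With the pair merged edgeR called 0 of the 13, and 1 gene in all (0.00649%). Mitochondria lack a glutaminyl-tRNA synthetase of their own and make glutaminyl-tRNA with the GatCAB amidotransferase instead. Its subunit genes Gatb, Gatc and Qrsl1 had log2 fold changes of 0.55, 0.93 and 0.12 (edgeR adjusted p 0.189, 0.126 and 0.770). Mtfmt, which formylates the mitochondrial initiator methionyl-tRNA, had a value of 0.07. Ears2, described above, makes the glutamyl-tRNA that the amidotransferase converts. Tarsl2, which is among the 13, stood at 5.56 CPM in the knockouts and 2.43 CPM in the controls, without overlap. It had 8 to 63 reads per library, and its log2 fold change of 1.21 ± 0.59 (SE) had an edgeR adjusted p of 0.240. Of the 13 genes, 11 had log2 fold changes above 0 and 2 below.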

How the data were processed

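The authors deposited raw counts of reads, with 1 row per Ensembl gene. The submitters' processing notes name STAR 2.7.5c, Trimmomatic 0.39, StringTie 2.1.7, edgeR and DESeq2 and the build mm10. The role of each tool, the annotation and the strand setting: not given in the sources used here. Per the labels' protocols, cDNA was primed with oligo-dT and amplified by PCR.

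Gene names came from GENCODE M21, which matched 22562 of 22579 identifiers. Genotypes were compared with edgeR 4.0.16 (TMM, filterByExpr, robust quasi-likelihood F-test, genotype alone), with Benjamini-Hochberg adjustment over 14766 genes and a threshold of 0.05. The SE given with a log2 fold change is its absolute value divided by the square root of the F statistic. The fit was tested on simulated data with independently drawn libraries, which cannot show how it behaves when 2 knockout libraries are nearly alike. DESeq2 1.42.0, limma-voom (limma 3.58.1), other scalings and filters, a replicate block, a length and GC correction, and single libraries left out were alternatives. Wherever limma-voom is named, it was run with a quality weight estimated for each library. Further alternatives were chosen after seeing the data: the pair counted as 1 library under the other tests, principal transcript lengths for the summed ratio, and exon lengths for the ratio of each pair. Nothing says that libraries came from separate animals, and p-values then measure only the spread between these libraries, which may be technical. Total counts of 8428871 to 12497967 reads bound counting error only, since PCR reads carry no molecular identifiers.

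Members and lists were chosen with earlier results of these data known. Library values are given for called members, the 3 highest and 3 lowest fold changes and the highest level per kb in each compartment. Values of Mars2, Iars2, Tarsl2, Gm15564 and single cell type markers were added after they were seen, as were the names of Dtd1 and Shmt2. One gene of the list of synthetase partners is not reported here, and the counts for that list leave it out.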

Additional observations from a re-analysis of the deposited data

How the results depend on the processing

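Of 648 fold changes of single members over 18 alternatives, 579 kept direction and side of the threshold, 12 lost the call, 18 gained one and 39 changed sign. The sign changes fell in 12 genes, none further from 0 than 0.24, and 24 genes kept their sign throughout. The synthetases called numbered 2, against 7 with library size alone, 0 with knockout 1 and 2 as 1 library, 5 with DESeq2, 9 with limma-voom, 1 after the length and GC correction, 1 with limma-voom on the pair as 1 library, and 0 to 3 with 1 library left out. All genes called numbered 713, against 1378 with library size alone, 1 with the pair as 1 library (465 by DESeq2 and 408 by limma-voom), 1641 with DESeq2, 2765 with limma-voom, and 3 to 839 with 1 library left out. Without knockout 1, 2 or 3 they numbered 5, 10 and 3, and without control 2 they numbered 182. The cause was not tested.

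Library size alone moved the median of all genes to −0.26. Under it 226 of 1378 calls were higher, against 300 of 713. The cytosolic median was then −0.32 and the mitochondrial −0.61. With limma-voom the medians were −0.025 and −0.22, after the length and GC correction 0.042 and −0.24, and with limma-voom on the pair as 1 library −0.032 and −0.27. With 1 library left out they ran from −0.082 to −0.018 and from −0.40 to −0.18, and the mitochondrial median was −0.42 without Lars2. The log2 difference of the summed ratio, −0.02 with all members, was 0.19 without Lars2, 0.05 without Gars and Kars, −0.11 on principal transcript lengths (0.18 there without Lars2), 0.03 with the pair as 1 library, and −0.11 to 0.04 with 1 library left out, so its sign is not settled. Scaling, filter, test and mitochondrial-gene alternatives give the ratio no other value, and the length and GC correction was not run for it.

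With library size alone the sign changed for Farsa (−0.23), Hars (−0.13), Nars (−0.26), Rars (−0.025), Sars (−0.26), Yars (−0.13), Hars2 (−0.24) and Rars2 (−0.071). With the pair as 1 library it changed for Cars (0.0034) and Nars (−0.0013), by DESeq2 for Cars (0.0016) and Nars (−0.0036), and by limma-voom for Cars (0.031) and Nars (−0.019). On all libraries limma-voom changed Hars (−0.019), Cars2 (0.17) and Hars2 (−0.064), and the length and GC correction Cars (0.12), Eprs (0.15), Hars (−0.037) and Lars (0.0038). With 1 library left out the ranges that crossed 0 were Cars −0.073 to 0.039, Cars2 −0.44 to 0.0044, Eprs −0.17 to 0.014, Farsa −0.038 to 0.094, Hars −0.053 to 0.28, Hars2 −0.15 to 0.35, Lars −0.29 to 0.042, Nars −0.043 to 0.036, Rars2 −0.098 to 0.56, Sars −0.040 to 0.091 and Yars −0.056 to 0.59.

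Deviations of same-numbered libraries from their group means correlated at −0.0042 to 0.0088, so no deviation shared by number was seen. With 3 libraries per group this cannot show whether libraries were paired, and the labels do not say. With the number as a replicate block 683 genes and 2 members were called, Lars2 (log2 fold change 1.43) and Dars (adjusted p 0.0497), while Aars had 0.0518.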
